A study of Mus musculus with 55 samples.

Results

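The enzymes that cut, cross-link or protect the extracellular matrix were examined across 10 cell populations of the mouse liver, in normal liver and after partial hepatectomy (PH, surgical removal of part of the liver). The set holds every gene named Mmp, Timp, Adamts or Adamtsl followed by a number, plus Lox and Loxl1 to Loxl4, taken by symbol without regard to its values. It has 56 members among 24478 gene symbols: 23 Mmp, 19 Adamts, 5 Adamtsl, 4 Timp and 5 lysyl oxidase genes. Values are FPKM, fragments scaled to transcript length and to library size, so that levels of different genes can be compared. The 55 RNA-seq libraries, 27 normal and 28 PH, came from C57B/L6 mice, from liver cells sorted by FACS into TRIzol. The populations, with normal and PH libraries in that order, were clonal biliary cells (cBEC, 4 and 2), biliary cells (BEC, 4 and 2), ducts without progenitor activity (NPD, 2 and 2) and hepatocytes (HC, 4 and 4). The others were endothelial cells (EC, 2 and 3), sinusoidal endothelial cells (LSEC, 3 and 5), Kupffer cells (KC, 2 and 3), stellate cells (HSC, 2 and 3), Thy1 cells (2 and 2) and blood cells (2 and 2). No transgene or drug is named. The labels give neither the time after surgery nor a batch, and nothing says that libraries of a group came from separate animals, so p-values measure only the spread between libraries, which may be technical.

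Matrix metalloproteinases (MMPs) are zinc enzymes that cut collagens, proteoglycans and cell surface proteins. Most are secreted as inactive precursors, while Mmp14, Mmp15, Mmp16 and Mmp24 span the membrane and Mmp17 and Mmp25 are anchored to it by a lipid. TIMPs bind and inhibit them. ADAMTS enzymes are secreted relatives that trim procollagens (Adamts2, Adamts3, Adamts14), cut proteoglycans (Adamts1, Adamts4, Adamts5, Adamts9) or cut von Willebrand factor (Adamts13), and the ADAMTS-like proteins lack the protease domain. Lysyl oxidases oxidise lysine residues of collagen and elastin, the first step of their cross-linking. In liver, stellate cells and portal fibroblasts are the best known sources of matrix and of the genes that remodel it.

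Of the 23 Mmp genes, 10 lie side by side on chromosome 9 at chr9:7272514-7699585 of the mm9 build, a stretch of 427.1 kb. Their order is Mmp13, Mmp12, Mmp1b, Mmp3, Mmp1a, Mmp10, Mmp8, Mmp27, Mmp20 and Mmp7. Promoter windows of RefSeq's GRCm38.p6 assembly were found for 37 of the 56 members, all 10 cluster genes among them. The letters TGANTCA, the form bound by AP-1 factors, were searched on both strands in the 250 bases before each start. They stood in 6.75% of all 32851 windows. Among members they stood in windows of 8 of the 10 cluster genes, Mmp8 and Mmp27 being without them, and in 0 of the 27 other matched members. The letters TATAAA, on either strand, stood in 12.4% of all windows, in 7 of the 10 cluster genes and in 3 of the 27 others. The 120 bases before the start of the 6 expressed cluster genes are shown because these neighbours differ in the cells that carry them. TGANTCA matches are in capitals, and positions are on the + strand of GRCm38.p6, 5′ to 3′. Mmp12 and Mmp7 each have a second window, left out because its 120 bases hold no match. The Mmp7 window shown ends at 7692089, while the Mmp7 row whose FPKM is given starts at 7692341 in mm9. The other windows shown end just before the mm9 starts of their genes, so the Mmp7 window may precede a different start.
Mmp13, chr9:7272394-7272513: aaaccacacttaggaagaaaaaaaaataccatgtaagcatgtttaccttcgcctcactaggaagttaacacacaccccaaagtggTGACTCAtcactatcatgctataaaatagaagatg
Mmp12, chr9:7347254-7347373: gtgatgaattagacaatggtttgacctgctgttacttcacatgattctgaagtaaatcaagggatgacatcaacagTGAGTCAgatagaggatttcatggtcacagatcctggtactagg
Mmp3, chr9:7445702-7445821: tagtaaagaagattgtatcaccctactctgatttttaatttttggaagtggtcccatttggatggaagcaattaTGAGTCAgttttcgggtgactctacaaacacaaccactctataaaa
Mmp8, chr9:7558309-7558428: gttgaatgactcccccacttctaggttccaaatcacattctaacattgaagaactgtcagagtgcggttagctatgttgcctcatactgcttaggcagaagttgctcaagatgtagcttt
Mmp27, chr9:7571276-7571395: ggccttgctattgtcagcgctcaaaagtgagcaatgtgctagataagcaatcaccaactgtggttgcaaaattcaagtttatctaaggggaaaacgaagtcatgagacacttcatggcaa
Mmp7, chr9:7691970-7692089: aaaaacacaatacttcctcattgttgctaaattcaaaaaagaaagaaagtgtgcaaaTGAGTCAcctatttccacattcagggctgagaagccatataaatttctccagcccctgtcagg
A match is a description of these letters, not evidence of a bound factor.

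The cluster's expressed genes divided among cell populations along the chromosome. In normal liver Mmp13, Mmp12 and Mmp27 were highest in Kupffer cells, Mmp3 in Thy1 cells, Mmp8 in blood cells and Mmp7 in clonal biliary cells. Mmp8 and Mmp27, 2.909 kb apart, illustrate it. Mmp8, neutrophil collagenase, read 40.6 and 53.3 FPKM in normal blood cells and 0.35 and 0.599 in Kupffer cells. Mmp27 read 26.5 and 21.5 in Kupffer cells and 0.878 and 2.06 in blood cells. Mmp7, matrilysin, read 17.6 to 96.4 over the 4 cBEC libraries and 29.1 to 46.1 over the 4 BEC libraries, so these populations overlapped. The value of 96.4 came from library 1 of normal cBEC. Mmp7 overlaps AV064505 on the other strand, which was highest in the same library at 21.9 FPKM. Mmp1a and Mmp1b were listed at 0 in all 55 libraries, and Mmp10 and Mmp20 stayed under 1 FPKM in every group mean.

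The libraries summed to between 624726 and 1203200 FPKM over all rows of the table, and libraries of a group correlated at 0.919 to 0.996 over all genes, which are not independent. Marker genes matched the labels in most groups, with exceptions that touch the members. The NPD libraries carried the mesothelial list (Msln, Upk3b, Upk1b, Wt1, Gpm6a) at a mean score of 9.64 normal and 9.21 PH, above their duct score of 7.81 and 8.27, a score being the mean log2(FPKM + 1) of a list. The Thy1 libraries carried it too, at 8.28 and 7.55, beside a fibroblast score of 6.99 and 6.09. Their endothelial score was 7.10 and 8.13, their sinusoidal score 6.26 and 7.18 and their duct score 6.87 and 6.21. Blood cells differed in markers between treatments, with a Kupffer score of 6.48 normal and 9.95 PH, a neutrophil score of 7.42 and 3.44, a lymphocyte score of 8.42 and 3.06 and a sinusoidal score of 6.59 and 8.84. Normal Kupffer libraries carried sinusoidal markers at 8.98, against 5.63 after PH. Library 2 of normal HSC summed to 675 FPKM over the Kupffer list and library 1 to 56.6. Library 1 of normal cBEC had a mesothelial sum of 458 FPKM, against 140 to 181 in the other 3. One PH cBEC library carries a treatment tag of normal and was kept as titled. In bulk populations like these, fewer cells of a type and less RNA per cell cannot be told apart.

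Leading members in normal liver were partly shared between populations, such as Timp2 in NPD and Thy1 cells and Timp3 in EC and LSEC. Of the 56 members, 47 reached a group mean of 1 FPKM somewhere, and 9 never did (Adamts17, Adamts18, Adamts20, Mmp10, Mmp1a, Mmp1b, Mmp20, Mmp21 and Timp4). At 1 FPKM or more, Thy1 cells carried 41 members, HSC 35, NPD 34, cBEC 31, BEC 26, EC 23, blood cells 22, KC 21, LSEC 21 and hepatocytes 6. Of the 48 members that passed the filter on low values in a fit of all 20 groups, 47 differed among populations in normal liver (limma F test, Benjamini-Hochberg adjusted p under 0.05). This is near the share of all genes, since 93.0% of the 16527 genes tested differed too. After PH 46 of the 48 did, against 88.3% of all genes. The population with the highest mean was the same before and after PH for 33 of the 45 members that reached 1 FPKM in both.

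**Figure D1:**
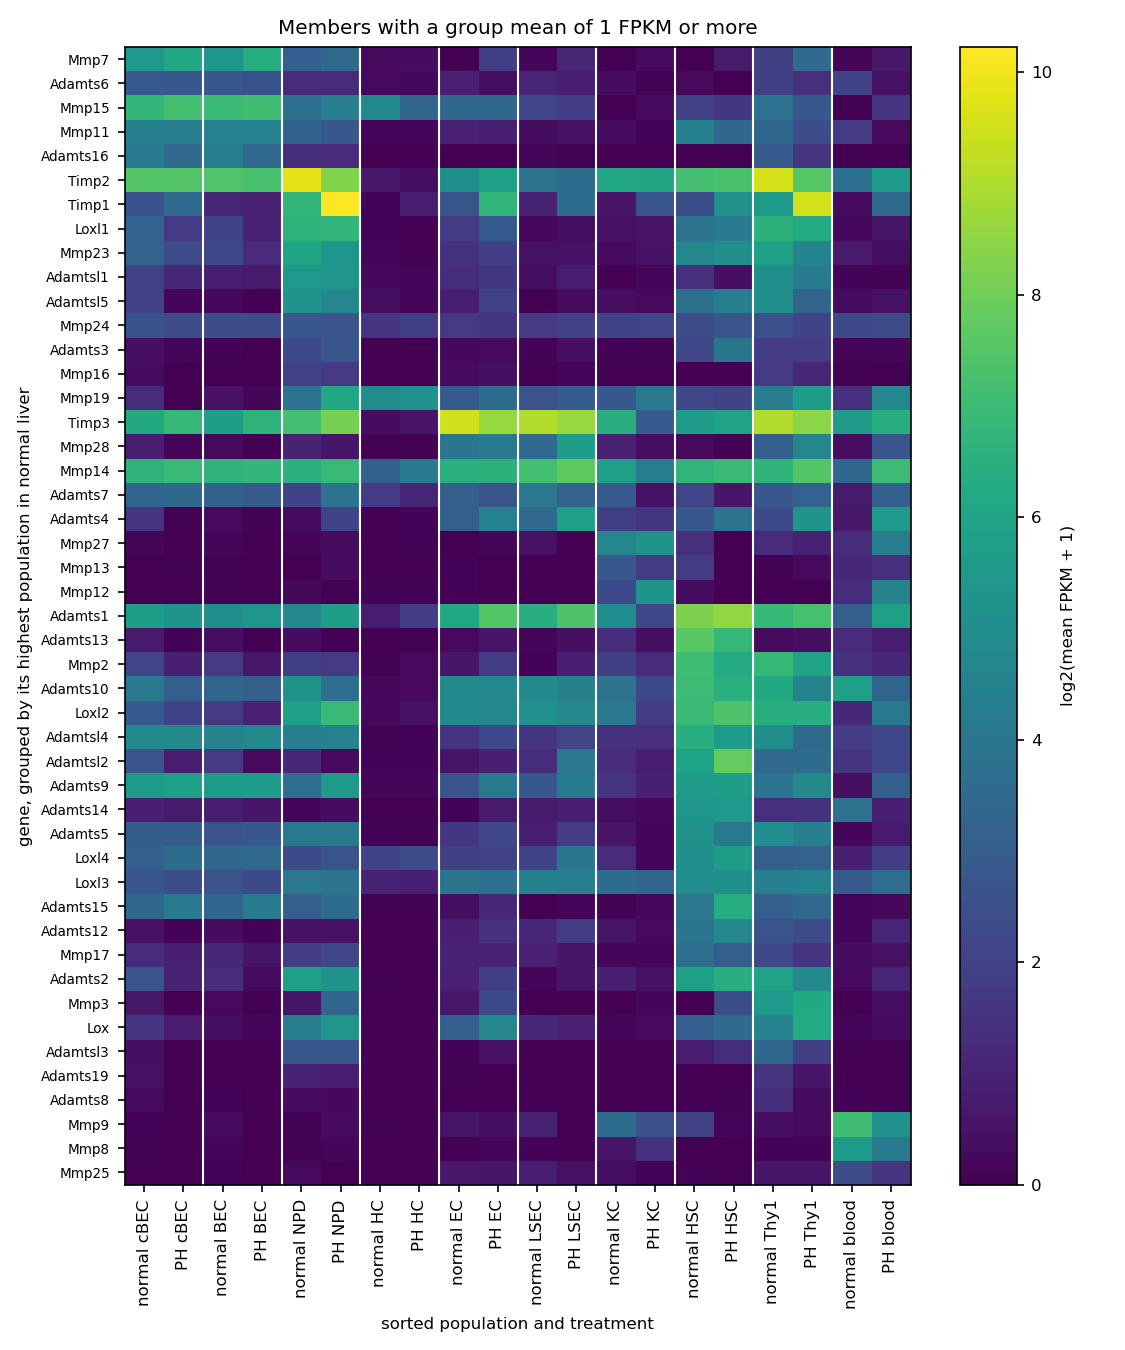
Rows are the 47 members that reached 1 FPKM as the mean of some group, columns the 20 groups, and colour the log2 of the mean FPKM + 1. The block of stellate cell genes is the longest, and hepatocyte columns are dark for all but a few members such as Mmp19 and Mmp15.

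Stellate cells had the highest mean for 15 members in normal liver, mostly ADAMTS genes. The 15 were Adamts1, Adamts5, Adamts9, Adamts10, Adamts12, Adamts13, Adamts14, Adamts15, Adamtsl2, Adamtsl4, Loxl2, Loxl3, Loxl4, Mmp2 and Mmp17. Among them Adamts9, Adamts12, Loxl2 and Mmp2 overlapped libraries of other populations. Adamts9 read 11.4 and 88.5 FPKM in HSC and up to 58.6 in other normal libraries. Adamts13 (chr2:26828936-26854100, mm9), which cuts von Willebrand factor, was nearly confined to them at 217 and 169 FPKM, while the highest library of any other population, normal KC 1, read 2.499. Adamts14, a procollagen N-propeptidase, read 43.2 and 37.1 in HSC, and 11.6 and 15.2 in blood cells, the next highest. Adamts1, an aggrecan- and versican-cutting protease, read 349 and 236 in HSC, 128 and 103 in Thy1 cells and 107, 122 and 33.3 in LSEC. Its HSC libraries lay above all other normal libraries. Adamtsl2, which binds latent TGF-beta-binding protein, read 63.3 and 55.2 in HSC, and 17.2 at most in any other normal library. Both genes of 2 neighbouring pairs were highest here, Adamts13 with Adamtsl2 (80.8 kb apart on chromosome 2) and Adamts1 with Adamts5 (55.04 kb apart on chromosome 16). A closer pair, Adamts15 with Adamts8 (21.61 kb apart on chromosome 9), was split, with Adamts15 highest in HSC and Adamts8 in Thy1 cells.

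Against the mean of the other 9 populations in normal liver, 25 members were higher in HSC and 10 lower (limma, adjusted p under 0.05). Of all genes tested 46.7% passed, 13.5% higher and 33.2% lower. With Adamts13 the log2 difference was 7.09 (SE 0.22, adjusted p = 3.03e-26), with Mmp2, gelatinase A, it was 5.23 (SE 0.51, adjusted p = 2.98e-11) and with Adamtsl2 4.49 (SE 0.48, adjusted p = 4.49e-10). The gene with the largest lower value was Mmp7 at -1.73 (SE 0.51, adjusted p = 0.00486). After PH 24 members were higher and 15 lower, while 50.1% of all genes passed, 16.9% higher and 33.2% lower. A member that entered the fit only because stellate cells express it had to differ, so these counts and p-values describe the set rather than test it. Adamts13, at no more than 2.499 FPKM in any normal library outside HSC, is close to such a case.

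Thy1 cells differed from stellate cells in a defined way among the members. Between the groups in normal liver, 11 members were higher in HSC and 16 higher in Thy1 (limma, adjusted p under 0.05), while 33.5% of all genes passed, 6.28% higher in HSC and 27.2% higher in Thy1. Higher in HSC were Adamts13 (log2 difference 7.29, SE 0.30), Adamts14 (3.99, SE 0.35), Adamtsl2 (2.44, SE 0.65) and Loxl4 (1.88, SE 0.45). Higher in Thy1 were Mmp3, stromelysin 1 (5.54, SE 0.72), Timp3 (3.33, SE 0.51), Timp1 (3.06, SE 0.60), Loxl1 (2.69, SE 0.49) and Timp2 (2.30, SE 0.57), as sizes of the difference. Mmp3 read 43.0 and 48.5 FPKM in normal Thy1 cells and was listed at 0 in both HSC libraries. Mmp2 did not pass, at 101 and 129 in Thy1 cells and 97.8 and 167 in HSC (difference 0.16, SE 0.69). Endothelial markers summed to 697 and 790 FPKM in normal Thy1 cells and to 61.6 and 313 in normal HSC. Mesothelial markers summed to 2767 and 1782 and to 3.02 and 0.864. The part of these lists in the differences, that of Timp3 included, was not tested.

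The duct population without progenitor activity led for 9 members, among them Timp1, Timp2, Loxl1 and Mmp23. Their levels there sat close to those of Thy1 cells, and the mesothelial list was high in both populations; its part in these levels was not tested. Loxl1, which acts on elastic fibres, read 84.9 and 111 FPKM in NPD and 102 and 87.1 in Thy1 cells, so these overlapped. In BEC it read 2.35 to 4.10 over 4 libraries. In cBEC it read 18.3 in library 1, the one with the raised mesothelial sum, and 5.28 to 5.42 in the other 3. Below Timp2, their highest member, the clonal and other biliary sorts carried the membrane proteases Mmp15 and Mmp14. Mmp15 read 90.9 to 133 over 4 cBEC libraries and 108 to 143 over 4 BEC libraries, and 10.1 and 14.7 in NPD.

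Hepatocytes expressed few members. Their leading ones were Mmp19 at 29.7 ± 3.18 FPKM (SD, n = 4), Mmp15 at 26.6 ± 5.38 and Mmp14 at 8.06 ± 0.858. In other populations the table lists many hepatocyte-rich transcripts at exactly 0, and this touches Mmp15 and Mmp19, at 0 in 7 and 8 of the 47 libraries of other populations. Mmp15 was listed at 0 in all normal Kupffer and blood libraries, a value that may be a failed estimate.

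Kupffer and blood cells carried the members known from myeloid cells. Mmp9, gelatinase B of neutrophils and macrophages, read 131 and 141 FPKM in normal blood cells and 9.48 and 12.8 in normal Kupffer cells. Mmp25, a membrane-anchored protease of leukocytes, read 4.13 and 4.58 in blood cells, above all other normal libraries, which reached 1.03. Mmp13, a collagenase, read 5.45 and 6.80 in Kupffer cells, and Mmp12, macrophage elastase, 4.57 and 3.15. Outside these populations Mmp13 read at most 5.03, in the normal HSC library with the high Kupffer sum; in the other HSC library it was listed at 0. Adamts10, which binds fibrillin microfibrils, also read 51.0 and 57.1 in blood cells.

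Timp2 and Timp3 had distinct sources. Timp2 (chr11:118162375-118216725, mm9) was the most abundant, at 807 and 974 FPKM in normal NPD and 946 and 556 in Thy1 cells. It read 163 to 212 over cBEC, 142 to 222 over BEC, 126 and 169 in HSC, 71.5 and 66.9 in KC, 16.1 and 49.6 in EC, 1.95 to 28.2 in LSEC, 8.19 and 16.6 in blood cells and 0.12 to 1.65 in hepatocytes. In order of the mean, NPD overlapped Thy1, cBEC overlapped BEC, BEC overlapped HSC, and KC stood apart from HSC above and EC below. Timp3 (chr10:85763157-85812250, mm9), which stays bound to the matrix, was instead endothelial, at 645 and 775 in EC and 438, 430 and 730 in LSEC. Thy1 cells followed at 641 and 392, then NPD at 148 and 137, KC at 65.7 and 103, cBEC at 54.9 to 124, BEC at 36.0 to 72.8, HSC at 42.5 and 56.5 and blood cells at 40.9 and 56.7. EC overlapped LSEC, LSEC overlapped Thy1, NPD lay above all that follow, and from KC downwards each overlapped the next. Hepatocytes stayed at or below 0.64. Timp4 was under 1 FPKM in every group mean.

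Timp1 (chrX:20447292-20451863, mm9), an inhibitor induced in injured tissue, was low in most of normal liver and rose after PH in 4 populations. In normal liver it read 163 and 52.9 FPKM in NPD, 31.9 and 60.1 in Thy1 cells and at most 8.04 in any other library. The 250 bases before its start are printed for comparison with the Mmp cluster; they hold neither TGANTCA nor TATAAA.
Timp1, chrX:20869916-20870165 (GRCm38.p6, + strand): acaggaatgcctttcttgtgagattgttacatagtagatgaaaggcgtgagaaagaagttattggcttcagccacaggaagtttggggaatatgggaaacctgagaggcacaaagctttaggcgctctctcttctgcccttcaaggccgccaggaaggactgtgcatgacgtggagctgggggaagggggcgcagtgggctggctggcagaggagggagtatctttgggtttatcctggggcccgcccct
After PH Timp1 read 1169 and 1222 in NPD. It read 7.28, 14.7, 8.12, 16.4 and 10.0 in PH LSEC, against 1.58, 0.1 and 1.37 in normal LSEC. In KC it read 0.547 and 0.399 normal and 7.90, 3.23 and 5.03 after PH, and in blood cells 0.0496 and 0.476 normal and 11.3 and 10.0 after PH. All PH libraries lay above all normal ones in these 4 populations. Each population's own limma fit called the rise, with log2 changes of 3.67 in NPD (SE 0.53, adjusted p = 0.0181), 2.64 in LSEC (SE 0.35, adjusted p = 0.00284), 2.05 in KC (SE 0.34, adjusted p = 0.0086) and 3.23 in blood cells (SE 0.25, adjusted p = 0.0011). The KC call was lost without either normal library (adjusted p up to 0.0755).

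In 3 further populations the Timp1 libraries did not overlap, yet the change did not pass the test. In Thy1 cells it read 31.9 and 60.1 normal and 792 and 665 after PH (log2 change 4.02, SE 0.41, adjusted p = 0.0969). In EC it read 4.82 and 5.76 normal and 187, 38.8 and 80.5 after PH (3.76, SE 0.59, adjusted p = 0.181). In HSC it read 4.47 and 4.28 normal and 15.8, 46.7 and 41.4 after PH (2.59, SE 0.51, adjusted p = 0.304). A single fit of all 20 groups called Timp1 in all 3, with adjusted p of 8.12e-06 in Thy1 cells, 6.55e-05 in EC and 0.00121 in HSC. In EC the duct list summed to 44.6 and 56.6 FPKM normal and 320, 166 and 311 after PH, and the mesothelial list to 57.4 and 175 and to 626, 150 and 251, in the same order of PH libraries as Timp1; their part was not tested. BEC libraries stayed between 0.839 and 1.28 under both treatments, and cBEC libraries overlapped at 1.57 to 8.04 normal and 16.8 and 3.81 after PH. Hepatocytes reached at most 0.33 normal and 2.04 after PH and did not enter the test. The Timp1 gene lies within Syn1 on the opposite strand, and the strand of counting is not given in the sources used here. Syn1 itself read at most 16.3 FPKM, in a PH Kupffer library.

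**Figure D2:**
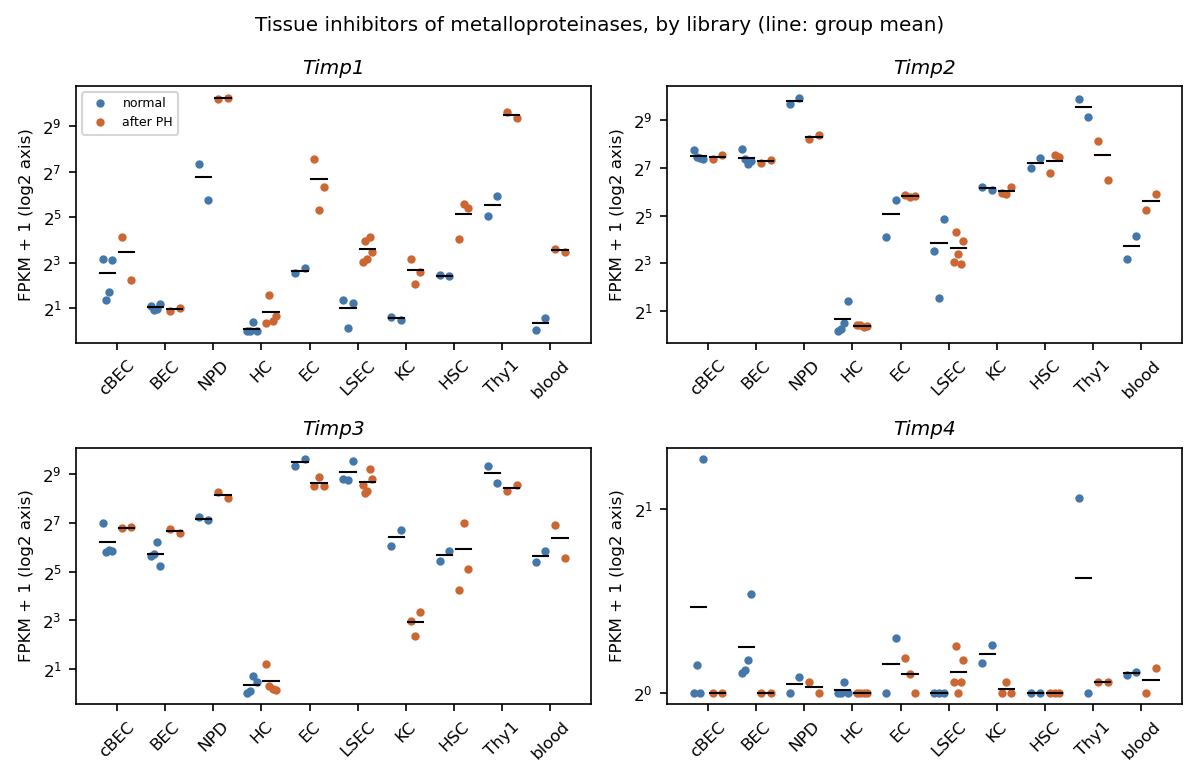
Each point is a library, with FPKM + 1 on a log2 axis for the Timp genes in the 10 populations, normal and after PH. Timp1 sits higher after PH in most populations, Timp2 lower in NPD and Thy1 cells, and Timp3 lower in Kupffer cells.

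The other TIMPs went in different directions. In NPD Timp2 fell, from 807 and 974 FPKM to 290 and 334 (log2 change -1.51, SE 0.21, adjusted p = 0.0171), while Timp3 rose, from 148 and 137 to 302 and 259 (0.97, SE 0.19, adjusted p = 0.031). In KC Timp3 fell from 65.7 and 103 to 6.92, 4.09 and 9.13 (-3.49, SE 0.35, adjusted p = 0.00212), the largest fall among members there. Endothelial and sinusoidal marker sums fell in the same libraries, as given below. Timp2 was called higher in blood cells, whose markers differed between treatments, with a log2 change of 1.44 to 2.37 over fits without 1 library. Timp3 also fell without overlap of libraries in EC, from a mean of 710 to 395 FPKM, and in Thy1 cells, and it rose so in BEC. Timp2 fell without overlap in Thy1 cells and rose so in EC. None of those EC, Thy1 and BEC changes passed. In cBEC Timp3 read 109 and 111 after PH against 54.9 to 57.3 in 3 normal libraries and 124 in library 1. It passed only when that library was left out (log2 change 0.95, adjusted p = 0.0346, against 0.528 with it).

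After PH the members changed most where all genes changed most. Blood cells had 19 of 27 tested members called, 13 up and 6 down, where 64.0% of all genes were called, 24.3% up and 39.7% down. Kupffer cells had 9 of 22, 3 up and 6 down (36.8% of all genes, 16.7% up and 20.1% down), a split of 4 up and 5 down under quantile normalization. NPD had 10 of 35, 8 up and 2 down (15.2%, 9.65% up and 5.51% down). LSEC had 6 of 22, all up (8.46%, 4.15% up and 4.31% down), and hepatocytes 1 of 7, down (6.19%, 1.78% up and 4.41% down). The shares in blood cells and Kupffer cells are near the background. None was called in cBEC (0 of 31; 0.0681% of all genes), BEC (0 of 26; 1.81%), EC (0 of 30; 0.0249%), HSC (0 of 34; 0.00853%) or Thy1 cells (0 of 41; 0.00747%). An unadjusted limma p under 0.05 was reached in those populations by 3, 9, 9, 8 and 12 members, and by 10.2%, 16.3%, 10.8%, 8.48% and 18.1% of all genes tested. The 3 members in cBEC are near that share. The median log2 change of the members tested was 0.79 in blood cells (all genes -0.31), -0.57 in KC (-0.04), 0.45 in LSEC (-0.03), 0.53 in EC (0.02), -0.40 in Thy1 cells (-0.06) and 0.16 in NPD (0.09). Those changes are on the log2(FPKM + 1) scale, which understates the change of low genes.

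**Figure D3:**
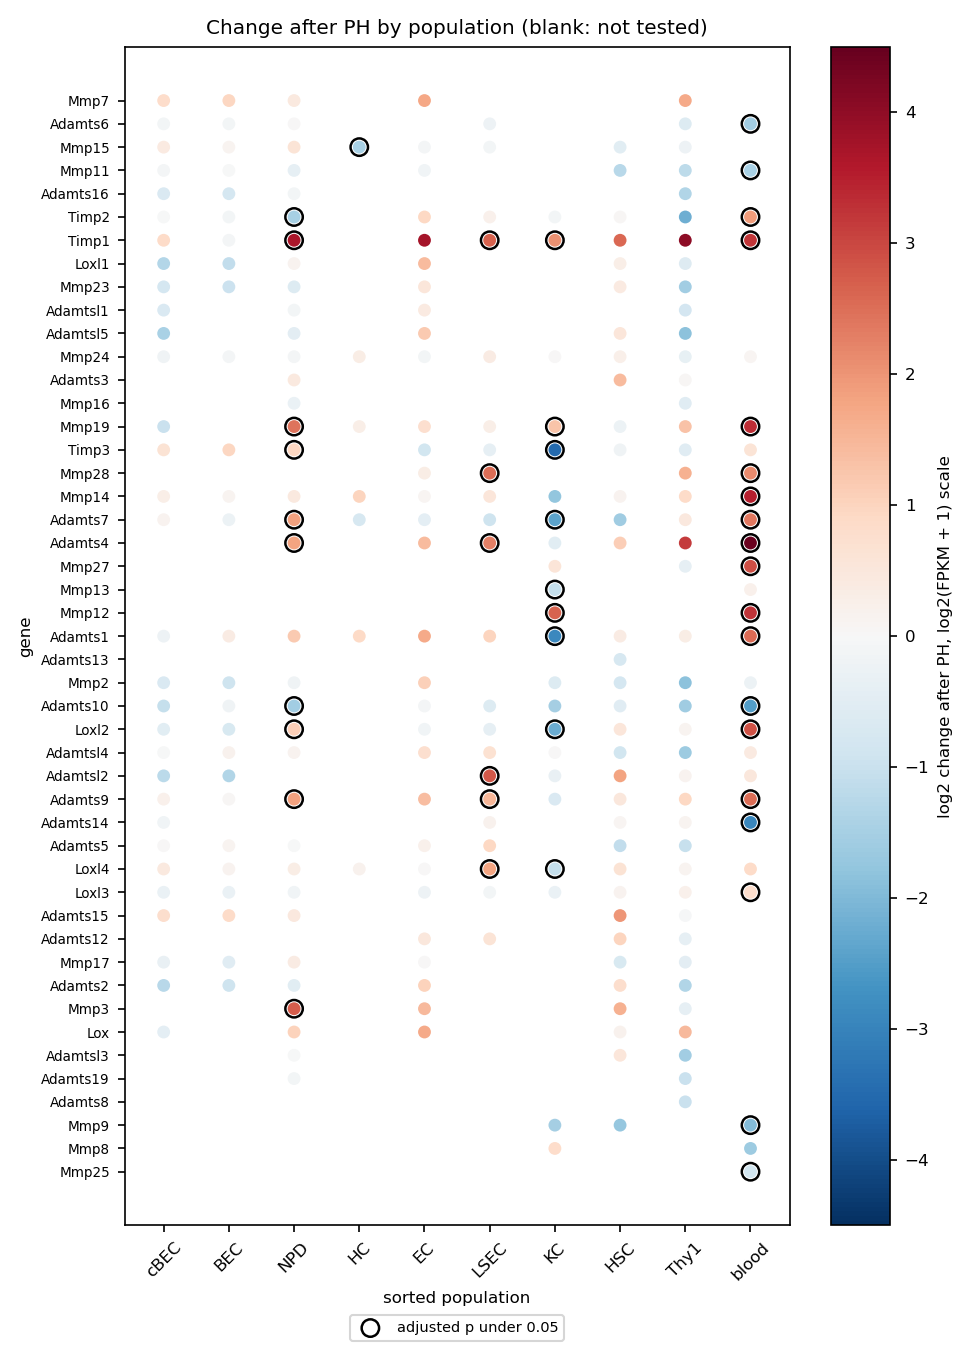
Colour gives the log2 change after PH of each tested member (rows) in each population (columns), and a black ring marks an adjusted p under 0.05. Timp1 is red in every column tested other than BEC, and the Kupffer and blood columns hold 6 ringed falls each.

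In LSEC 6 members rose and none fell. Adamts4 (chr1:173180260-173192398, mm9), an aggrecanase, read 14.2, 7.71 and 9.29 FPKM in normal and 87.2, 33.4, 57.2, 43.7 and 56.1 in PH libraries, without overlap (log2 change 2.28, SE 0.29, adjusted p = 0.00278). Adamtsl2 read 0.870, 0.531 and 3.14 normal and 20.5, 18.8, 5.93, 19.9 and 14.6 after PH (2.79, SE 0.43, adjusted p = 0.00563). It is otherwise the stellate gene named above, and the stellate marker sum in LSEC ran from 27.7 to 34.5 FPKM normal and from 10.2 to 89.7 after PH; its part was not tested. Mmp28, epilysin, read 8.42, 2.51 and 20.1 normal and 36.8 to 70.3 over the 5 PH libraries (2.51, SE 0.48, adjusted p = 0.0156). Without normal library 1 its adjusted p was 0.0589. Adamts9 rose too, with 3.71 to 8.16 over the normal and 13.1 to 20.2 over the PH libraries (1.48, SE 0.23, adjusted p = 0.00593). Loxl4 read 2.80 to 3.55 over the normal and 7.10 to 32.9 over the PH libraries (1.78, SE 0.38, adjusted p = 0.0202), a rise that lost its call when any of the 3 normal libraries or PH library 1 was left out. Fibroblast markers summed to 10.3 to 197 FPKM in normal and 164 to 597 in PH LSEC, and sinusoidal markers to 4461 to 8956 and 1313 to 4969; their part was not tested. Mmp14, the membrane collagenase that activates Mmp2, read 129 to 151 normal and 185 to 222 after PH without overlap, but did not pass.

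In NPD the proteases that rose were Mmp3, Mmp19, Adamts4, Adamts7 and Adamts9. Mmp3 read 0.658 and 0.346 FPKM normal and 8.53 and 9.43 after PH (log2 change 2.74, SE 0.27, adjusted p = 0.00962). Mmp19 read 21.2 and 6.29 normal and 69.4 and 65.7 after PH (2.43, SE 0.52, adjusted p = 0.0407). It overlaps Tmem198b on the other strand, which was highest in PH NPD library 1 at 40.8 FPKM. Adamts7, which cuts cartilage oligomeric matrix protein, read 4.49 and 2.09 normal and 15.8 and 12.1 after PH (1.85, SE 0.34, adjusted p = 0.0293). Adamts9 read 14.8 and 9.12 normal and 49.3 and 39.1 after PH (1.83, SE 0.27, adjusted p = 0.0185). Adamts10 fell, from 32.0 and 42.9 to 13.3 and 10.3 (-1.58, SE 0.23, adjusted p = 0.0177). Kupffer markers summed to 79.4 and 172 FPKM in normal NPD and to 4.06 and 7.11 after PH, and mesothelial markers to 5468 and 6024 and to 3681 and 4220; their part was not tested. With either PH NPD library left out, none of the 10 calls in NPD passed, Timp1, Timp2 and Timp3 included.

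In Kupffer cells the falls outnumbered the rises. Adamts1 fell from 29.1 and 32.1 FPKM to 3.23, 1.82 and 5.55 (log2 change -2.88, SE 0.36, adjusted p = 0.00382). Adamts7 fell from 5.74 and 6.73 to 0.456, 0.0275 and 0.735 (-2.39, SE 0.28, adjusted p = 0.00304). Loxl2 fell from 12.0 and 20.1 to 2.86, 2.16 and 2.48 (-2.25, SE 0.25, adjusted p = 0.00285). Loxl4 and Mmp13 also fell, but Mmp13 lost its call without any library other than PH library 3 (adjusted p up to 0.182). Adamts1 lost its call without normal library 2 (0.0505). Timp3, Adamts1, Adamts7, Loxl2 and Loxl4 were expressed in normal LSEC too, and Adamts7 had its highest normal mean there. Sinusoidal markers summed to 3014 and 4187 FPKM in normal Kupffer libraries and 261 to 460 after PH. Endothelial markers summed to 1000 and 1191 and to 287 to 509, and the part of these lists in the falls was not tested. Mmp12 went the other way, from 4.57 and 3.15 to 15.9, 18.6 and 79.9 (2.64, SE 0.71, adjusted p = 0.0355). The value of 79.9 came from PH library 3, and without that library the Mmp12 change was 1.92 and 14 members were called in place of 9. Leaving out normal library 1 left 4 calls, and Mmp12 lost its call without either normal library or PH library 2. Mmp19 rose from 7.40 and 4.56 to 12.9, 14.2 and 21.3 (1.30, SE 0.29, adjusted p = 0.0208), a call that was lost without either normal library.

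Blood cells held the largest called change, in Adamts4, beside the differences in markers given above. Adamts4 read 0.818 and 0.467 FPKM normal and 72.4 and 15.9 after PH (log2 change 4.43, SE 0.72, adjusted p = 0.00607). Leaving out 1 library moved that change between 3.37 and 5.49, and the call was lost without either normal library (adjusted p up to 0.068). Mmp14 read 9.09 and 9.96 normal and 179 and 79.3 after PH (3.51, SE 0.40, adjusted p = 0.00252). Mmp19 read 1.78 and 1.55 normal and 21.8 and 29.5 after PH (3.31, SE 0.22, adjusted p = 9e-04). Mmp12 read 1.96 and 1.05 normal and 28.7 and 17.4 after PH (3.25, SE 0.33, adjusted p = 0.00193). Adamts14 fell from 11.6 and 15.2 to 0.643 and 1.14 (-2.93, SE 0.25, adjusted p = 0.00132). Mmp9 fell as well, from 131 and 141 to 38.1 and 31.6 (-1.94, SE 0.16, adjusted p = 0.00128). In the same libraries the Kupffer list summed to 459 and 739 FPKM normal and 6443 and 11520 after PH, the sinusoidal list to 672 and 774 and to 2255 and 5160, and the neutrophil list to 3190 and 3619 and to 843 and 2150. The lymphocyte list summed to 2391 and 2475 and to 27.9 and 69.7. All markers on the Kupffer and sinusoidal lists were at 1 FPKM or more under both treatments, and the part of these lists in the changes was not tested. Leaving out normal library 1 left 9 of the 19 calls; Timp1, Mmp12, Mmp14, Mmp19, Mmp9, Adamts10 and Adamts14 were among those called whichever library was left out.

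In hepatocytes Mmp15 (chr8:97876196-97898193, mm9), a membrane-type MMP, fell. It read 28.3, 21.5, 23.3 and 33.4 FPKM normal and 6.63, 6.28, 12.0 and 12.2 after PH, without overlap (log2 change -1.46, SE 0.26, adjusted p = 0.0114). The call held whichever library was left out, with an adjusted p of at most 0.041. Mmp14 read 7.16 to 8.97 normal and 8.50, 24.5, 17.7 and 21.9 after PH and did not pass (0.99, SE 0.30, adjusted p = 0.0871). Without PH library 1, the one at 8.50, it passed (1.30, adjusted p = 0.00416).

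No member was called in the other populations, and the smallest p in each belonged to these genes. In HSC it was Adamtsl2, at 63.3 and 55.2 FPKM normal and 198, 299 and 158 after PH, without overlap (log2 change 1.82, SE 0.33, adjusted p = 0.259). In BEC it was Loxl1, at 2.35 to 4.10 normal and 0.936 and 0.992 after PH (-1.10, SE 0.25, adjusted p = 0.0723). It passed without normal library 3 (adjusted p = 0.0482), with a pseudocount of 0.1 (0.0414) and with the replicate block (0.0236). In the same BEC libraries the mesothelial list summed to 68.3 to 118 FPKM normal and 45.4 and 56.0 after PH, and the fibroblast list to 13.7 to 18.7 and 5.41 and 8.31, both without overlap; their part was not tested. In cBEC it was Adamts15 (0.80, SE 0.19, adjusted p = 0.33). In EC and Thy1 cells it was Timp1, with the values above; without PH EC library 2, Timp1 passed in EC (4.30, adjusted p = 0.0307). In a single fit of all 20 groups, whose libraries share an estimate of the spread, 8 members were called in HSC (11.9% of all genes), 12 in Thy1 cells (11.4%) and 1 each in EC (1.24%) and cBEC (3.12%), of 48 tested. Timp1 was among them in HSC, Thy1 cells and EC. Kupffer markers summed to 56.6 and 675 FPKM in normal HSC libraries and to 0.515 to 37.3 after PH, beside falls of Mmp9 and Mmp13 in that fit; their part was not tested.

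Lysyl oxidases were each highest in HSC, Thy1 cells or NPD but differed in spread. In normal liver LSEC came next after HSC for Loxl3, and BEC came next after HSC for Loxl4. Lox, the founding member, was highest in normal Thy1 cells at 27.9 and 16.2 FPKM, followed by NPD at 23.2 and 14.7, EC at 4.46 and 11.1 and HSC at 7.25 and 7.42. After PH it read 120 and 30.1 in Thy1 cells, 36.3 and 41.5 in NPD and 29.9, 26.2 and 21.2 in EC, none of which passed. In cBEC it read 6.08 in library 1 and 0.498 to 1.03 in the other normal libraries. Loxl2, which acts on basement membrane collagen, was highest in HSC at 65.8 and 170, with 123 and 46.0 in Thy1 cells, 58.6 and 52.5 in NPD and 29.1 to 41.3 in LSEC. HSC and Thy1 overlapped for Loxl2. It rose in NPD, to 114 and 130 (log2 change 1.12, SE 0.17, adjusted p = 0.0192), and in blood cells, from 1.15 and 1.34 to 22.9 and 10.2 (2.87, SE 0.40, adjusted p = 0.00403), and fell in KC as given above. The blood call was lost without either normal library (adjusted p up to 0.0558). Loxl3 was the most even, between 4.47 and 31.2 in every normal library outside hepatocytes, and highest in HSC. It rose in blood cells (0.79, SE 0.20, adjusted p = 0.021 by limma), a call lost in 3 of 4 fits with 1 library left out. The change in those fits was 0.65 to 0.93. The Loxl3 gene overlaps Htra2 on the other strand, which read 5.68 to 64.1. Loxl4 read 18.5 and 48.0 in HSC and 7.21 to 12.3 over BEC, and fell in KC from 1.35 and 1.29 to 0.186, 0.0994 and 0 (-1.09, SE 0.19, adjusted p = 0.0102), a call lost without normal library 1, PH library 1 or PH library 2 (adjusted p up to 0.0572).

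**Figure D4:**
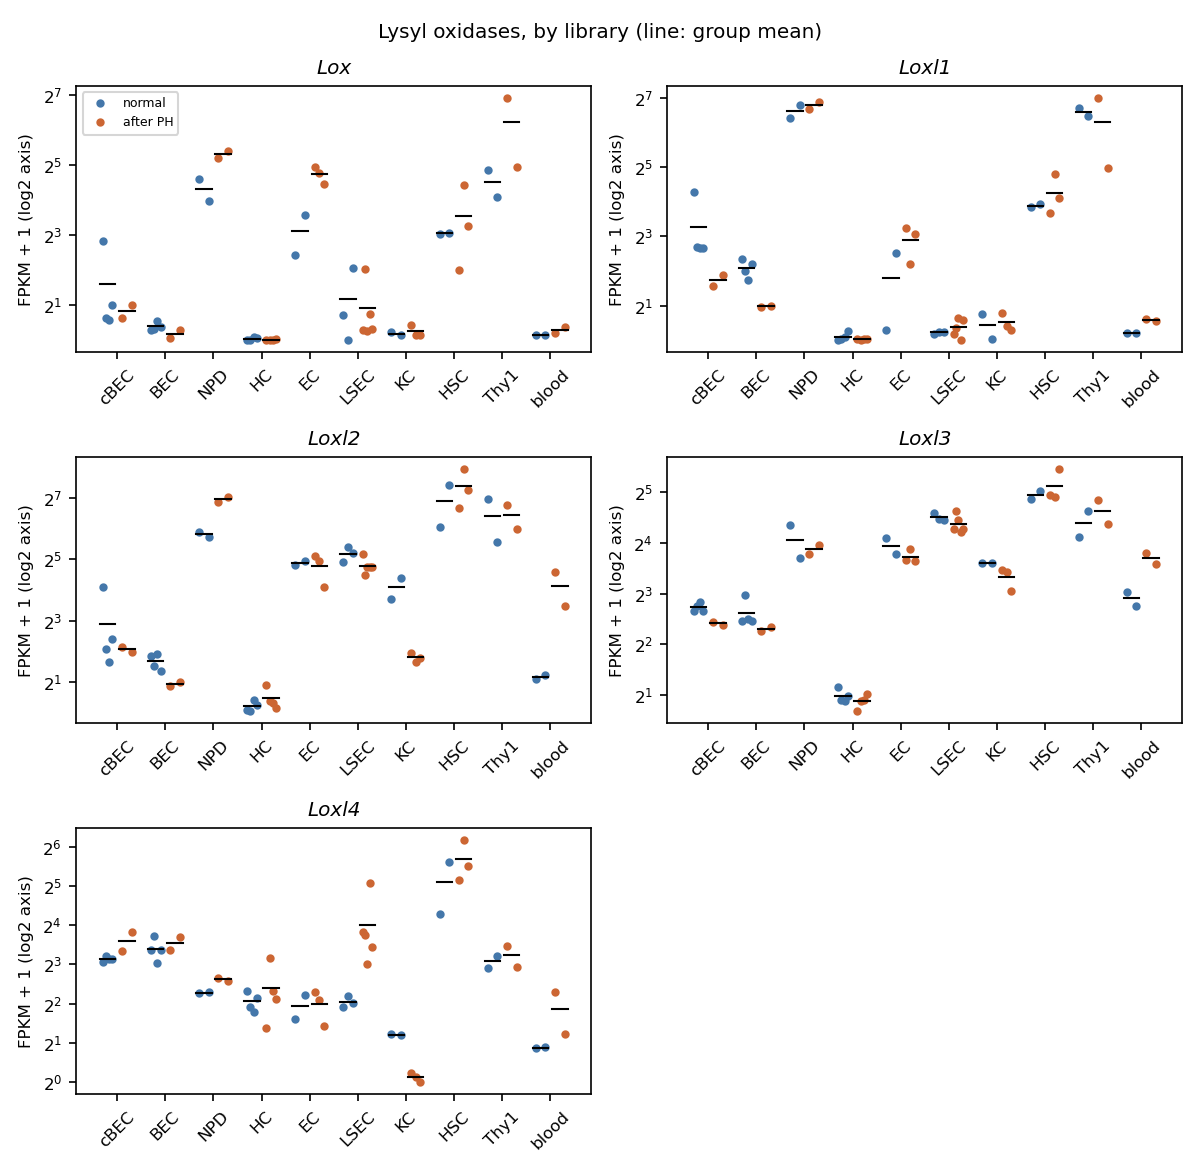
Points are libraries, with FPKM + 1 on a log2 axis for Lox and Loxl1 to Loxl4 in the 10 populations, normal and after PH. Loxl1 separates NPD and Thy1 cells from the rest. Loxl3 is more even than the others in normal liver outside hepatocytes but highest in HSC, and Loxl4 is higher in PH than in normal LSEC.

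The change after PH differed among populations for 33 of the 48 members in the fit of all groups (limma F test of the interaction, adjusted p under 0.05), while 47.8% of all genes differed. The 4 smallest adjusted p-values belonged to Mmp12 (1.49e-09), Adamts7 (4.86e-09), Mmp14 (1.24e-07) and Timp3 (9.28e-06). Adamts7 rose in NPD and blood cells and fell in KC. It also read 12.2 to 17.8 FPKM in normal LSEC and 4.05 to 12.0 after PH without overlap, a change that did not pass. Mmp14 differed most between blood cells, where it rose, and KC, where it read 54.0 and 57.0 normal and 11.6, 8.28 and 36.5 after PH and did not pass. Without PH library 3, the one at 36.5, it passed in KC (log2 change -2.39, adjusted p = 0.000331). It also passed there in the single fit of all groups (adjusted p = 0.000235). Adamts7 and Mmp14 had their highest normal mean in LSEC, and sinusoidal sums of the KC and blood libraries differed between treatments. The part of sinusoidal markers in these changes was not tested. Mmp12 passed upward in KC and blood cells, and no library of another population exceeded 0.518 FPKM. It entered the fit only through those populations, so its interaction p describes where it is expressed rather than tests it. Its call in the KC fit depended on single libraries, as given above.

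Other genes of matrix turnover were followed as lists. Of the genes of collagen processing, folding and cross-linking, 8 of 9 tested rose in LSEC (P4ha1, P4ha2, P4hb, Plod1, Plod2, Plod3, Serpinh1 and Tgm2). The median log2 change over the list was 1.14. Plod2, a lysyl hydroxylase, rose by 1.58 (SE 0.33, adjusted p = 0.0182 by limma) and Serpinh1, the collagen chaperone, by 1.64 (SE 0.31, adjusted p = 0.0123). Of all genes tested in LSEC, 4.15% rose. The fibroblast and sinusoidal sums of these LSEC libraries are given above, and their part was not tested. In NPD 5 of 12 rose and none fell (9.65% of all genes rose), in KC 7 of 9 rose and 1 fell (16.7% and 20.1%), and in blood cells 9 of 10 rose and 1 fell (24.3% and 39.7%). The KC and blood libraries are those whose sinusoidal and Kupffer sums differed between treatments as given above, and the part of these cells was not tested. In the plasminogen system, Plaur, the urokinase receptor, rose by 2.10 in NPD (SE 0.24, adjusted p = 0.0117 by limma). In LSEC Plaur rose while Plau, urokinase, fell by 1.70 (SE 0.22, adjusted p = 0.0028). Of 5 cathepsins, 5 rose in blood cells (24.3% of all genes rose), 2 rose and 2 fell in KC (16.7% and 20.1%), and 2 fell in NPD (5.51% fell). Kupffer cells carry cathepsins at a high level, with Ctsb at a mean of 1773 FPKM in normal KC and 537 in normal and 2392 in PH blood cells. The Kupffer sum moved with them in blood cells, from 459 and 739 to 6443 and 11520 FPKM, and its part was not tested. Among membrane ADAM proteases and MMP partners, 3 of 9 tested rose in LSEC and none fell (4.15% and 4.31% of all genes). Adam15 rose there by 2.53 (SE 0.27, adjusted p = 0.0014 by limma). In NPD 2 of 9 rose and 2 fell (9.65% and 5.51%), and Reck, a membrane MMP inhibitor, fell by 1.32 (SE 0.21, adjusted p = 0.0212). Of matrix substrates, 3 of 9 tested rose in NPD (Fbn1, Fn1 and Vcan) and 2 fell (Dcn and Fbln5), where 9.65% of all genes rose and 5.51% fell. The median log2 change of the list there was -0.11. The proteoglycan versican (Vcan), cut by Adamts1, Adamts4 and Adamts9, rose by 2.67 in NPD (SE 0.26, adjusted p = 0.0096 by limma). In KC 3 of 8 substrates fell, namely Bgn, Fn1 and Thbs1 (20.1% of all genes fell). In blood cells 5 of 8 rose (24.3% rose), and in BEC 2 of 8 fell (1.81% were called). Fn1 went from a KC mean of 151 FPKM to exactly 0 in every PH library. Hepatocytes carry much Fn1 (normal mean 247), and such a 0 may be a failed estimate. Bgn went from a KC mean of 187 to 25.6, and its normal LSEC mean was 630. Sinusoidal sums of the KC and blood libraries differed between treatments, and their part in these counts was not tested.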

How the data were processed

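The deposited table gives FPKM for each library, a unit taken from the name the authors gave the table. The submitters' processing notes name CASAVA 1.8.2, Bowtie 1.0.0 and the mm9 build; the counting tool is not given in the sources used here. FPKM hide the depth behind each value, so counting intervals could not be given. Hepatocyte columns are rounded to 2 decimals. Of 36141 rows, the row with the highest mean was kept for each of 24478 symbols. Of 17613 symbols with 1 row, 53.5% had an end minus start equal to the RefSeq length, so starts were read as counted from 0 and 1 was added. Groups follow the sample titles. PH was compared with normal within each population by two-sided tests of log2(FPKM + 1) in limma 3.58.1 (R 4.3.3) with trended, robust moderation, Benjamini-Hochberg over all genes tested, threshold 0.05. Genes needed 1 FPKM in as many libraries as the smallest group holds. F tests and HSC contrasts used a single fit of all groups. The script was tested on simulated data. The members, lists, contrasts and markers were chosen with earlier results of these data known. The genes named were the 6 largest called changes in each population at most, or the smallest p where none passed, the 3 highest members of each normal population, every expressed Timp and Lox gene and the 4 smallest interaction p; others were chosen after their values were seen. Scaling, pseudocount, filter, transcript row, fit, replicate block and each library were varied.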

Additional observations from a re-analysis of the deposited data

Results flagged for a closer look

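Among 57 pairs of a named gene and a group of 4 to 10 libraries, 10 held a library far from the others by Dixon's criterion, where chance gives about 2.85. Of these, 7 were library 1 of normal cBEC, which read highest for Adamts1 (111.009 FPKM, others 27.0 to 38.4), Adamts4 (7.46453, others 0.0206 to 0.291), Lox (6.07704, others 0.498 to 1.03), Loxl1 (18.3453, others 5.28 to 5.42), Loxl2 (16.0566, others 2.16 to 4.28), Timp2 (212.01, others 163 to 171) and Timp3 (124.364, others 54.9 to 57.3). That library also summed higher over the mesothelial list, at 458 FPKM against 140 to 181, over the fibroblast list, at 118 against 21.3 to 30.6, and over the endothelial list, at 113 against 0.797 to 27.7. The part of those lists in its values was not tested. The other 3 were library 2 of normal BEC for Loxl3 (6.88499, others 4.47 to 4.65), library 4 of PH LSEC for Loxl4 (32.8603, others 7.10 to 13.1) and library 2 of PH LSEC for Mmp19 (10.5107, others 5.06 to 6.13).

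The change after PH differed among populations for 33 members in the limma interaction test. The smallest adjusted p belonged to Mmp12 (1.49e-09), Adamts7 (4.86e-09), Mmp14 (1.24e-07) and Timp3 (9.28e-06). Mmp12 entered that fit only through KC and blood cells, so its p describes where it is expressed.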

How the results depend on the processing

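No direction reversed under any alternative run. Counts of called members moved by over 1.5 times as follows. With no filter on low values, calls were 0 in HC, LSEC and NPD, 3 in HSC, 5 in KC and 2 in blood cells. In the single fit of all groups they were 1 in EC, 2 in HC, 8 in HSC, 6 in NPD, 12 in Thy1 cells and 1 in cBEC. With a pseudocount of 0.1, 1 was called in BEC. The cause was not tested, except that the single fit draws its spread from more libraries. With the replicate block, calls were 5 in BEC, 15 in KC, 0 in LSEC and 7 in Thy1 cells. Replicate numbers were not shown to pair libraries: deviations of same-numbered libraries correlated at -0.32, 0.57, -0.67 and 0.44 in HC and at -0.02, -0.24 and -0.11 in LSEC, and only HC library 2 matched its own number best there. The other populations share 2 numbers each, with correlations of -0.16 to 0.13. Every library in cBEC, BEC, NPD, HSC and Thy1 cells matched its own number best, and no library in EC, KC or blood cells did. In a group of 2 libraries the deviations from the mean mirror each other. Matches within these populations are thus not independent, and they cannot show pairing.

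Leaving out 1 library gave 0 to 1 calls in cBEC, 0 to 3 in BEC (3 without normal library 3), 0 to 13 in NPD (0 without either PH library), 1 to 2 in HC, 0 to 1 in EC, 4 to 8 in LSEC, 4 to 14 in KC, 0 to 0 in HSC and Thy1 cells and 9 to 23 in blood cells. It gave 47 to 48 for differences among normal populations, 45 to 46 after PH, 26 to 37 for the interaction, 27 to 37 for HSC against the others in normal liver, 36 to 41 after PH and 23 to 25 for HSC against Thy1 cells. Of the single-gene values, 353 kept their side of the threshold with a library left out, 25 lost it and 2 gained it; over the other settings 195 kept it, 28 lost it and 7 gained it. Upper-quartile scaling moved the median of all genes in blood cells from -0.31 to -0.12 and quantile normalization to -0.14. Depth is unknown and limits low genes most.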
